A study of Mus musculus with 26 samples.

Results

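Synaptonemal complex and meiotic cohesin genes were followed through the fetal ovary of the mouse, from before meiosis to the days before birth. The set was Sycp1, Sycp2, Sycp3, Syce1, Hormad1, Rad21l, Stag3 and Terb2, taken by symbol as 8 of the 16344 complete genes in the count table. All 8 were found. They were chosen by name, with earlier results of these data known.

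The synaptonemal complex is the protein zipper that joins homologous chromosomes in meiotic prophase. Cohesin rings and lateral axes are laid down along each chromosome, and transverse filaments then bridge the paired axes. In female mice this happens before birth, in germ cells that leave the mitotic cycle within the fetal ovary, while the somatic cells around them do not enter meiosis.

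Cells came from BVSC transgenic mice, which carry the reporters Blimp1-mVenus and Stella-ECFP. Every group shared these transgenes, and no other allele or agent is given. Female gonads of several embryos were combined at each of 8 stages from E11.5 to E18.5, with the day of the vaginal plug taken as E0.5, digested with trypsin and sorted. Single cells were then picked by mouth for STRT-seq, a tagged reverse transcription method that captures 3' ends and counts unique molecular identifiers (UMIs). The cell table gives 3 sort gates: BVSC with 1302 cells, BV with 50 and Negative with 529.

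Counts were summed into pools of at least 5 cells from 1 library, stage and gate. This gave 18 BVSC pools (26 to 96 cells, 4743602 to 27498626 UMIs): 4 at E14.5 and 2 at every other stage. There were 17 Negative pools, with 700825 to 13141802 UMIs. Levels are CPM, the gene's UMIs per 1000000 of the deposited UMI total of the pool. Libraries, numbered 1 to 26, were the replicates, and since nothing says that they came from separate animals, p-values cover only differences among libraries and may reflect technical spread. In these pools, fewer cells with a transcript and less transcript per cell cannot be told apart. The 9 germ cell markers summed to between 1301 and 2144 CPM in BVSC pools and to between 26.7 and 472.1 CPM in Negative pools, with none at 0 over either gate. They include Prdm1 (Blimp1) and Dppa3 (Stella), the genes of the reporters, so this sum is not independent of the sort. It also hides changes of single markers. From E14.5 to E16.5, 6 were called lower and 1 higher in the stage test given below, against 7.51% and 8.81% of all genes. The 9 gonadal somatic markers summed to between 1399 and 2427 CPM in Negative pools and to between 12.4 and 224.6 CPM in BVSC pools, highest at E16.5 (137.0 and 224.6 CPM). A total of 97 BVSC cells reached 100 CPM of these somatic markers, 45 of them among the 188 cells of E16.5. The 5 BV cells of E11.5 carried macrophage markers at 8850 CPM. Their pool was compared with no other, but it was among the pools of the fit of BV against BVSC at E14.5.

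Promoter sequence is shown because the genes rose together in germ cells. RefSeq windows of the GRCm38.p6 build were matched by symbol for 7 of the 8 genes, all but Terb2. In the 250 bases upstream of the start, the E-box CACGTG, a palindrome read by basic helix-loop-helix factors, was found in Sycp1, Sycp3, Hormad1 and Stag3. It was found in 6.02% of all 32851 such windows. Both strands were searched. In the stretches below, written 5′ to 3′ on the strand of the gene, capitals mark the E-box and, in Hormad1, also the E2F core GGCGGGA, which was found in 9.75% of windows.
Hormad1 (chr3:95559577-95559676, plus strand): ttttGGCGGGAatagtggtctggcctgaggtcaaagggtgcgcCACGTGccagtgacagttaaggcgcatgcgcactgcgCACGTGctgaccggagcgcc
Sycp3 (chr10:88459469-88459568, plus strand): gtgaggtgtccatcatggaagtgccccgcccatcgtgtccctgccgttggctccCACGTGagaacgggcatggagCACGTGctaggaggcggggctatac
Sycp1 (chr3:102936111-102936210, minus strand): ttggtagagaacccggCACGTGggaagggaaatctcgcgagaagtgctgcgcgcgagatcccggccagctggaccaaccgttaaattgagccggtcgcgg
Stag3 (chr5:138280327-138280356, plus strand): cgcgctggagccCACGTGacaggactgcac
Rad21l (chr2:151668534-151668633, minus strand): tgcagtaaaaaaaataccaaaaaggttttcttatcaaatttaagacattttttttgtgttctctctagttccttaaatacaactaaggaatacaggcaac
Distances are from the RefSeq start, which for Sycp3 and Stag3 lies inside the GENCODE gene span printed further on. The Stag3 stretch, with its E-box, lies wholly within that span, so it is upstream of the RefSeq start only. The E-boxes began 57 and 20 bases before the start of Hormad1, 64 and 43 before that of Sycp3, 94 before that of Sycp1 and 170 before that of Stag3. Sycp2, Syce1 and Rad21l had no E-box in this window. The Rad21l window is shown for its composition: G and C made up 25.6% of its 250 bases, with 1 CpG, against a median of 52.4% and 6 CpGs over all windows. Only 0.377% of windows had a lower share. The other 6 genes had 53.2% to 68.0%. The motif CNCCTCAG, known as that of STRA8, was found in none of the 7 genes' upstream windows and in 6.42% of all windows. These matches describe letters and not sites in use.

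The axis proteins come first in assembly. Hormad1 (chr3:95559677-95587671) encodes a HORMA-domain protein of the unsynapsed axis. Its BVSC level was 78.9 and 107 CPM at E11.5, 178 and 166 at E12.5, and 189 and 194 at E13.5. It reached 314, 340, 404 and 437 CPM in the 4 pools of E14.5, 588 and 606 at E15.5, 611 and 656 at E16.5, 589 and 650 at E17.5, and 399 and 450 at E18.5. Hormad1 was thus present at the earliest stage, and the pools of E11.5 lay below those of every later stage.

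Sycp2 (chr2:178345293-178407685) and Sycp3 (chr10:88459569-88473236) encode the proteins of the lateral element, the core of each axis. Sycp2 stayed between 3.69 and 7.76 CPM in the 4 pools of E11.5 and E12.5, and was 29.2 CPM in library 3 and 4.41 in library 10 at E13.5. At E14.5 it was 51.1 CPM in library 5 and 131, 141 and 177 in the other pools. It then lay at 346 and 451 CPM at E15.5, 435 and 485 at E16.5, 303 and 441 at E17.5, and 190 and 376 at E18.5. Sycp3 lay between 3.82 and 13.3 CPM in all 6 pools up to E13.5. It was 50.8, 65.4, 115 and 132 CPM at E14.5, and between 181 and 255 CPM in all 8 later pools. For both genes every pool of E14.5 was above every earlier pool and below every later one.

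The exons of Sycp3 overlap those of Chpt1 on the opposite strand, and the strand setting of the counting is not given, so reads there could fall to either gene. Chpt1 ranged from 15.6 to 70.3 CPM over BVSC pools. Its stage means were 36.4 CPM at E11.5 and 29.4 at E14.5.

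Stag3 (chr5:138280240-138312393) and Rad21l (chr2:151645404-151668533) encode meiosis-specific subunits of cohesin. Stag3 was 52.8 and 70.4 CPM at E11.5, 75.9 and 104 at E12.5, 99.9 and 175 at E13.5, and 144, 197, 256 and 273 at E14.5. It was 320 and 413 CPM at E15.5, 235 and 287 at E16.5, 130 and 249 at E17.5, and 70.4 and 144 at E18.5. The E18.5 pools thus lay within the range of E11.5 to E14.5. Rad21l, which encodes a kleisin that closes the ring, had 0 counts in all 4 pools of E11.5 and E12.5. It was 0 and 0.507 CPM at E13.5, 3.17, 5.02, 5.43 and 10.8 at E14.5, and 16.4 and 25.3 at E15.5. Later it was 12.3 and 14.6, then 13.6 ± 0.159 (SD, n = 2), then 3.58 and 14.96 CPM. The low value at E18.5 was that of library 26, which held 26 cells.

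In the central region, Sycp1 (chr3:102818499-102936100) encodes the transverse filament and Syce1 (chr7:140777229-140787852) a protein of the central element. Sycp1 was 13.95 and 28.3 CPM at E11.5, 63.8 and 66.0 at E12.5, 138 and 152 at E13.5, and 485, 526, 564 and 588 at E14.5. It reached 942 and 1057 CPM at E15.5, 1291 and 1485 at E16.5, 1355 and 1364 at E17.5, and 1098 and 1219 at E18.5. No pools of neighbouring stages overlapped from E11.5 to E16.5. Syce1 was 69.6 and 78.5 CPM at E11.5, 80.0 and 97.8 at E12.5, 99.6 and 139 at E13.5, and 297 to 360 at E14.5. It was 499 and 528 CPM at E15.5 and then between 325 and 469 in the 6 later pools.

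Terb2 (chr2:122186272-122206397) encodes a protein that ties meiotic telomeres to the nuclear envelope. It was 3.78 and 4.71 CPM at E11.5, 5.79 and 8.70 at E12.5, and 4.48 and 14.6 at E13.5. It was 38.9, 51.2, 54.3 and 56.6 CPM at E14.5, 90.4 and 154 at E15.5, 77.6 and 92.2 at E16.5, 42.8 and 82.1 at E17.5, and 45.5 and 47.3 at E18.5. Its pools of E17.5 and E18.5 overlapped the range of E14.5.

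**Figure D1:**
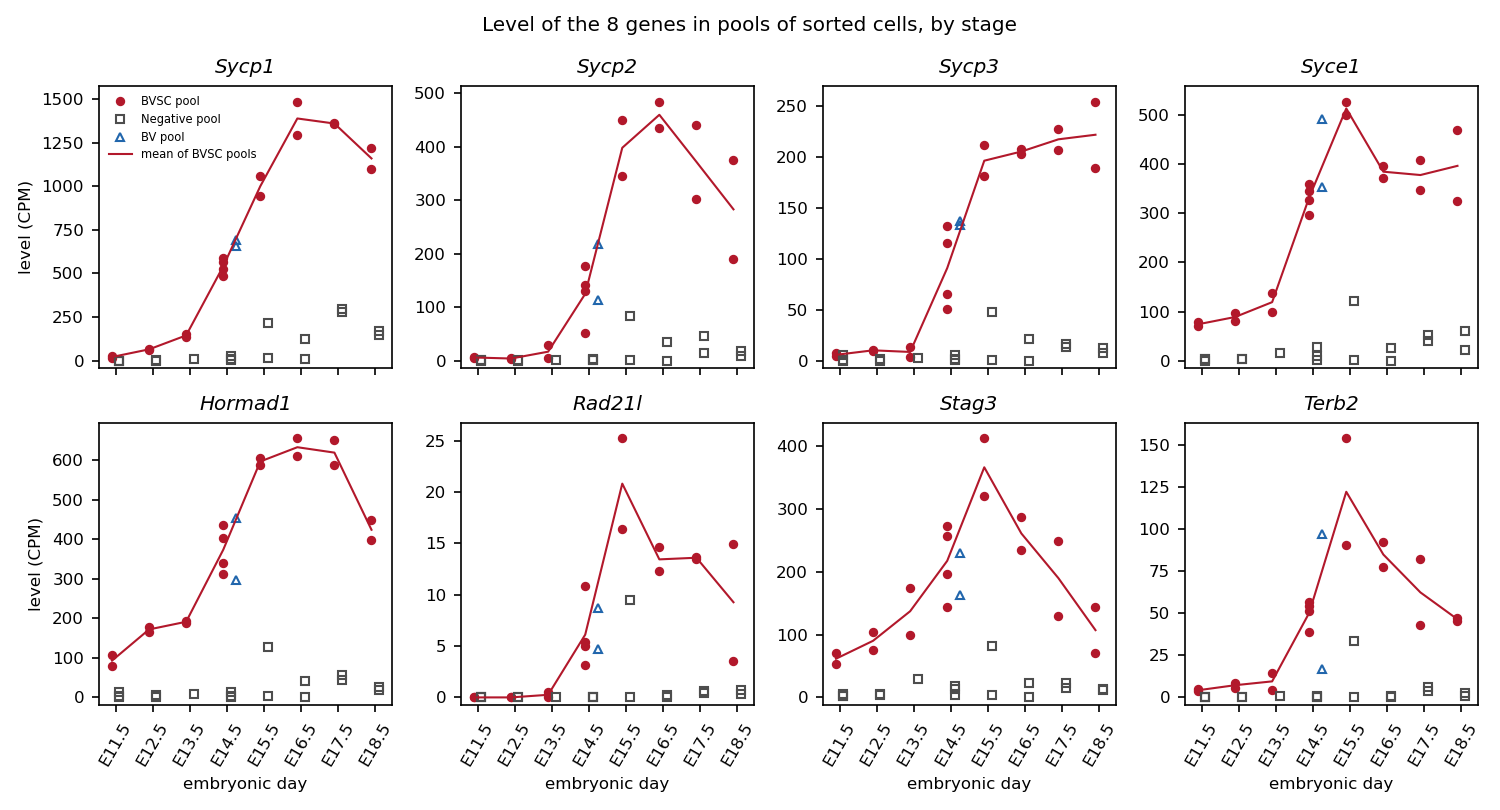
Level in CPM (vertical axis, linear, a scale of its own for each gene) by embryonic day for the 8 genes; filled circles are BVSC pools, open squares Negative pools, open triangles the BV pools of E14.5, and the line joins the means of the BVSC pools. Sycp1, Sycp2 and Sycp3 lie near the axis up to E13.5, while Hormad1, Syce1 and Stag3 start above it, and Stag3 and Terb2 are lower at E18.5 than at E15.5.

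Onset was taken as the first stage whose mean reached 10% of the gene's highest stage mean, so that each gene was compared with itself. Hormad1, Syce1 and Stag3 had passed that level by E11.5, at 14.7%, 14.4% and 16.8% of their peaks. At a level of 25% their onsets were E12.5, E14.5 and E13.5, and that of Sycp1 was E14.5, level with Syce1. Sycp1 passed it at E13.5 with 10.4%, and at E14.5 without library 3, without library 20, in the mean over single cells, or without the BVSC cells that held somatic markers. Sycp2, Sycp3, Terb2 and Rad21l passed it at E14.5, where they stood at 27.2%, 41.0%, 41.1% and 29.4%. Terb2 moved to E13.5 when library 10 or library 16 was left out. The stage that reached 50% of the peak was E14.5 for Hormad1, Syce1 and Stag3 and E15.5 for the other 5 genes.

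The highest means were at E15.5 for Syce1, Stag3, Terb2 and Rad21l, at E16.5 for Sycp1, Sycp2 and Hormad1, and at E18.5 for Sycp3. By E18.5 Stag3 stood at 29.2% of its peak, Terb2 at 38.0% and Rad21l at 44.5%. Sycp2 stood at 61.6%, Hormad1 at 67.0%, Syce1 at 77.3% and Sycp1 at 83.5%. Sycp3 varied only between 88.5% and 100% of its peak from E15.5 on, and its peak moved to E16.5 without the BVSC cells that held somatic markers and to E17.5 without library 6 or library 25. The peak of Hormad1 moved to E17.5 without library 22 or 24 and to E15.5 in the mean over single cells, and that of Sycp1 to E17.5 without library 22. Onset and peak are descriptions, with no test.

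**Figure D2:**
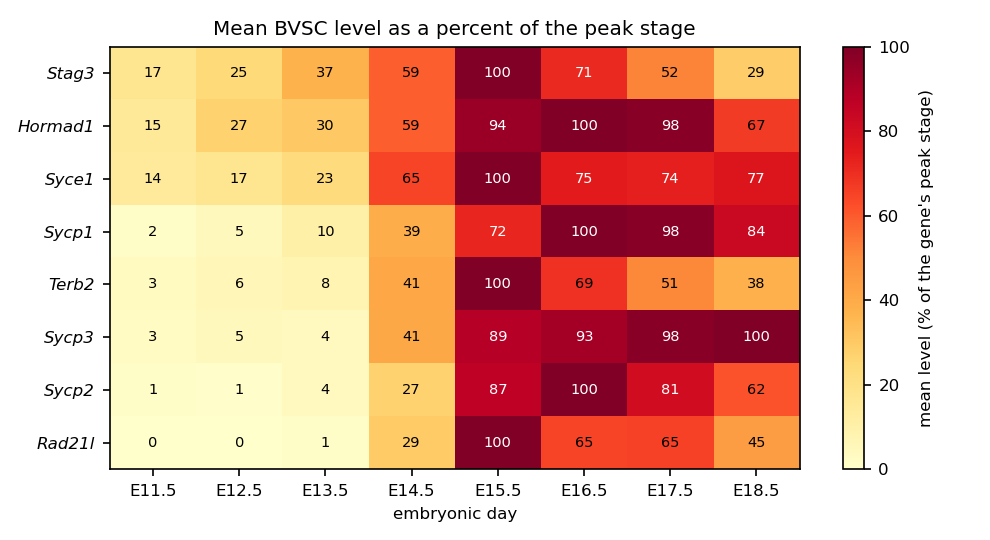
Mean BVSC level of each gene (rows) at each embryonic day (columns) as a percent of its highest stage mean, printed in each cell and coloured from 0 to 100%. Stag3, Hormad1 and Syce1 begin at 14.4% to 16.8%, the other 5 genes at 0% to 3.48%, and Stag3, Terb2 and Rad21l fade most by E18.5.

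For stage differences the quasi-likelihood test of edgeR was run on 10246 genes, with Benjamini-Hochberg adjustment over all of them. Between E11.5 and E14.5 all 8 genes rose, where 8.35% of all genes tested were called higher and 5.58% lower. Rad21l, with 0 counts at E11.5, passed the filter on low counts only through later pools. It could not have been called lower, so its call adds no support. The median log2 fold change of the 8 was 3.59, against 0.07 over all genes, and is the same with Rad21l at the bound given below. Sycp1 rose from 21.1 ± 10.2 CPM (SD, n = 2) to 541 ± 45.2 (SD, n = 4), or 4.51 ± 0.28 (SE) as log2 fold change, with adjusted p = 4.35e-09. Stag3 changed least, from 61.6 ± 12.4 to 217 ± 58.9 CPM, a log2 fold change of 1.62 ± 0.31 (adjusted p = 0.00158). Rad21l had 543 counts over the pools of E14.5 and 0 over those of E11.5. In summed counts over summed UMI totals, not means of pools, this was at least 89.6-fold higher, against a floor of 3 counts over the group that covers counting error only. All 8 calls also held with the title prefix of the libraries, s0307 or s0505, as a covariate.

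From E13.5 to E14.5 Sycp3, Sycp2, Terb2, Sycp1 and Syce1 rose, 5 of 8 genes, against 1.19% of all genes called higher. Sycp3 went from 8.56 ± 6.71 to 90.9 ± 39.0 CPM (log2 fold change 3.42 ± 0.43, adjusted p = 0.000295). Sycp2 rose by 2.94 ± 0.53 (adjusted p = 0.00458), Terb2 by 2.42 ± 0.42 (0.0041), Sycp1 by 1.85 ± 0.24 (0.000352) and Syce1 by 1.45 ± 0.23 (0.00232). Hormad1 had a log2 fold change of 0.90 ± 0.23 (adjusted p = 0.0502), Rad21l one of 4.35 ± 1.12 (0.0636) and Stag3 one of 0.63 ± 0.30 (0.36). Without library 10, whose levels of Sycp2 and Terb2 were the lower of the E13.5 pair, 3 genes were called, and Sycp2, Terb2 and Syce1 were not among them.

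Before E13.5 only Sycp1 was called. It rose from E11.5 to E12.5 by 1.62 ± 0.26 on the log2 scale (adjusted p = 0.0155), where 0.0683% of genes were called higher. That call was lost without library 7 or with upper-quartile scaling (adjusted p up to 0.253 over its alternatives). From E12.5 to E13.5 none of the 8 was called by edgeR, against 0.0683% of genes called higher. Sycp1, Sycp2 and Rad21l had unadjusted p-values under 0.05, and DESeq2 called 1 of the 8. Without library 7 or without library 10, edgeR called 1.

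From E14.5 to E15.5 Sycp1, Sycp2 and Terb2 rose, 3 of 8, against 3.55% of all genes called higher and 2.7% lower. Sycp2 went from 125 ± 53.0 CPM (SD, n = 4) to 398 ± 74.0 (SD, n = 2), a log2 fold change of 1.63 ± 0.43 (adjusted p = 0.0285). Terb2 rose by 1.23 ± 0.36 (0.0447) and Sycp1 by 0.82 ± 0.21 (0.0264). Of the 4 libraries of E14.5, 3 (libraries 4, 5 and 12) carry the same deposited replicate name, R1, and with pools merged by that name none of the 8 was called. Terb2 was also lost with the title prefix as a covariate. The calls rested on single libraries: none was called without library 5, 14 or 16, 1 was called without library 12, and 5 without library 26. Over the longer step from E14.5 to E16.5, Sycp1 (1.32 ± 0.21, adjusted p = 0.000306), Sycp2 (1.86 ± 0.43, 0.00561), Hormad1 (0.72 ± 0.21, 0.0239) and Sycp3 (1.15 ± 0.34, 0.0256) rose, 4 of 8 against 8.81% of genes called higher and 7.51% lower. Without library 5, 14, 20 or 22 the count was 2, with Sycp1 and Sycp2 called in every alternative run; Hormad1 was also lost without library 8 or 9 and with the title prefix as a covariate. With pools merged by deposited replicate the count was 2 as well.

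After E15.5 no call was made. edgeR called none of the 8 from E15.5 to E16.5, E16.5 to E17.5 or E17.5 to E18.5, where 0.039%, 0% and 0.00976% of all genes were called in either direction. Unadjusted p-values were under 0.05 for 0, 0 and 1 of the 8, and DESeq2 called none. From E16.5 to E18.5 none of the 8 was called either, against 0.869% of genes called lower, with 2 unadjusted p-values under 0.05 and 1 call by DESeq2. Stag3 had the smallest adjusted p there: 261 ± 36.7 CPM at E16.5 and 107 ± 51.9 at E18.5, or -1.33 ± 0.34 (SE) as log2 fold change, with adjusted p = 0.0611. It was called lower in 10 of 26 alternatives, among them those without library 6, 10, 16, 18, 24 or 25. The order of neighbouring stage means from E15.5 on therefore rests on differences that edgeR did not call.

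The somatic cells around the germ cells gave the background. In BVSC pools 7 of 7 genes tested were higher than in Negative pools, with stage as a covariate, where 35.3% of the 7258 genes tested were called higher. Stag3 averaged 183 ± 102 CPM (SD, n = 18) against 15.2 ± 19.1 (SD, n = 17), or 3.67 ± 0.32 (SE) as log2 fold change, with adjusted p = 1.1e-11. The other 6 genes had log2 fold changes from 3.71 ± 0.54 for Sycp3 to 5.14 ± 0.60 for Terb2. Rad21l did not pass the filter on low counts. It was at or under 0.678 CPM in 16 of the 17 Negative pools and at 9.50 CPM in library 17. Over stages the gates overlapped for each of the 7 genes tested, since early BVSC pools were low and some Negative pools were not. For Stag3, Hormad1 and Syce1 only library 17 (Negative, E15.5) made the overlap, at 81.62, 127.6 and 121.2 CPM. The lowest BVSC pools of these genes held 52.85, 78.86 and 69.56 CPM.

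In the Negative pools of the last stages Sycp1 was 298 and 281 CPM at E17.5 and 145 and 171 CPM at E18.5, in libraries that held both gates. These values were 21.8% and 20.7% of the BVSC level of the same library at E17.5 and 13.2% and 14.03% at E18.5. The other 7 genes stood at 1.43% to 12.7% of their BVSC level in libraries 6, 24 and 25. In library 26 (E18.5) they stood at 4.07% to 15.95%, and Stag3, the highest, was above Sycp1. At E11.5 and E12.5, also in libraries with both gates, Sycp1 in Negative pools was at most 2.46 CPM. Library 17 (Negative, E15.5) held 214 CPM of Sycp1 and 33.8 CPM of Terb2, whereas library 19 of the same gate and stage held 12.9 and 0 CPM. In alternatives chosen after seeing the data, the same 7 genes and Rad21l were called at E14.5 to E16.5 against Negative pools of libraries without BVSC cells, and the 7 at the other stages in libraries that held both gates. Sycp1 had log2 fold changes of 4.89 and 3.35 in these fits. The share of all genes called in them was not counted, so their calls cannot be weighed against it. At E14.5 to E16.5 the gates came from different libraries, so gate and library cannot be told apart there.

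Some Negative cells carried most of the set. After each cell was thinned to 100000 of its UMIs, 382 Negative cells were deep enough, and 6 of them had at least 5 UMIs of 6 or more genes, 5 in library 17 and 1 in library 21. Their germ cell markers summed to between 1346 and 2903 CPM and their somatic markers to between 79.8 and 172.8 CPM. The other 376 Negative cells had medians of 87.2 CPM for the germ markers and 1928 for the somatic ones. These 6 cells were picked by their values and were not tested.

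The BV gate at E14.5 held 2 pools, of 15 and 30 cells. Sycp1 was 656 and 690 CPM there, above the 4 BVSC pools of that stage, and Sycp3 was 133 and 137 CPM, also above them. Terb2 was 16.98 and 97.1 CPM, on both sides of the BVSC pools. None of the 8 genes was called between BV and BVSC by edgeR, none had an unadjusted p under 0.05, and 0.0355% of 11264 genes were called. The log2 differences ran from -0.18 ± 0.65 (Stag3) to 0.52 ± 0.91 (Sycp3), with SEs between 0.65 and 1.32. The fit took its spread from the BVSC, BV and Negative pools of all stages together. For Sycp1 its SE was 0.66, against 0.21 for E14.5 to E15.5 in the fit of BVSC pools alone, also with 2 and 4 pools. The lack of calls therefore does not show that the gates are alike. The BV pools came from libraries 4 and 5, which also held BVSC pools, and the fit has no library term. In library 5 the BV level was above the BVSC level for each of the 8 genes, for example 137 against 50.8 CPM for Sycp3. In library 4 it was above for Sycp1, Sycp3 and Rad21l and below for the other 5, for example 17 against 54.3 CPM for Terb2. How many of all genes went each way was not counted. Cell names hold letters that no label explains. Among the BVSC cells of library 5, Sycp3 was 107 CPM in letter C and 24.0 in letter P. Whether BV cells differ from them in these letters was not tested.

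Within single BVSC cells, 1110 reached 100000 UMIs and 192 did not. A gene was counted in a cell at 5 or more of the thinned UMIs. At E11.5 Hormad1 was counted in 64.5% of 124 cells, Syce1 in 54.0% and Stag3 in 50%, against 17.7% for Sycp1. Sycp2, Sycp3 and Terb2 were counted in 6.45%, 4.84% and 1.61%. Rad21l was counted in 0 of 124 cells, which allows a share of up to 2.42%, where the limit of a count of 0 is taken here and below as 3 cells over the total. In Negative cells of that stage, thinned to the same depth, Hormad1 was counted in 4.35% of 23 cells and each of the other 7 genes in none, which allows up to 13.04%. Before thinning, the median depth was 315893 UMIs in BVSC cells and 98991 in Negative cells.

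By E14.5 the shares had split into separate ranges. Sycp1, Syce1, Hormad1 and Stag3 were counted in 99.6%, 99.1%, 97.0% and 94.0% of 233 cells. Sycp2 was counted in 52.8% (exact 95% interval 46.2% to 59.3%), Sycp3 in 45.9%, Terb2 in 39.1% and Rad21l in 3.86%. In library 5 Sycp2 and Sycp3 were each counted in 25%, the lowest of the 4 libraries, and the highest shares were 66.7% and 57.5%. At E15.5 Sycp2 was counted in 95% of 140 cells, Sycp3 in 81.4%, Terb2 in 70% and Rad21l in 15.7%. Terb2 then stood at 55.1%, 39.2% and 30.9% of cells at E16.5, E17.5 and E18.5. Stag3 was counted in 79.0% of the cells of E18.5, in 91.4% of those of library 6 and 47.8% of those of library 26. These intervals cover counting error only. Without thinning, Sycp2 was counted in 64.3% of the 283 cells of E14.5 and Terb2 in 40.2% of the 97 cells of E18.5.

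**Figure D3:**
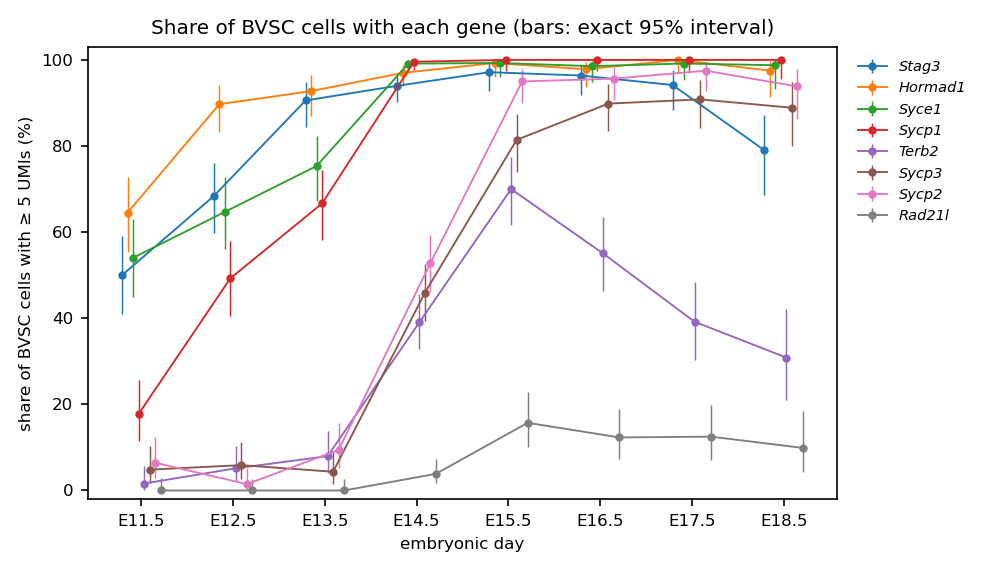
Share of BVSC cells with at least 5 UMIs of each gene (vertical axis, percent) by embryonic day, with cells thinned to 100000 UMIs; bars are exact 95% binomial intervals. Hormad1, Stag3, Syce1 and Sycp1 exceed 90% by E14.5, Sycp2 stands at 95% and Sycp3 at 81.4% at E15.5, and Terb2 is highest, at 70%, at E15.5.

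For Sycp1 the share of cells did not separate the gates late on: it was counted in all 25 thinned Negative cells of E17.5, as in all 120 BVSC cells. The level differed, as given above. Negative shares of the other genes at E17.5 ran from 0 of 25 cells for Terb2 and Rad21l to 44.0% for Hormad1, against 39.2% (Terb2), 15 of 120 cells (Rad21l) and 100% (Hormad1) in the BVSC gate. A count of 0 of 25 allows up to 12.0%.

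The number of the 8 genes per cell moved in steps. Its median was 2 at E11.5, 3 at E12.5, 4 at E13.5, 5 at E14.5, 7 at E15.5 and E16.5, and 6 at E17.5 and E18.5. Cells with at least 6 of the 8, a limit chosen after the values were seen, were 0 of 124, 0 of 136 and 6 of 138 at the first 3 stages, which for the zeros allows up to 2.42% and 2.21%. They made up 45.9% of cells at E14.5, 87.1% at E15.5, 93.5% at E16.5, 89.2% at E17.5 and 79.0% at E18.5. These shares depend on depth and threshold: at 50000 UMIs per cell they were 28.8% at E14.5, 73.4% at E15.5, 67.1% at E16.5 and 50.5% at E18.5, with the highest at E15.5, and at 1 UMI 82.8% at E14.5. All 6 cells of E13.5 were of library 3. At E14.5 the share by library ran from 25% to 52.6%, and at E18.5 it was 89.7% in library 6 and 52.2% in library 26. At E16.5 it was 99.0% without the cells that held somatic markers.

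The combinations depend on absolute level, since the UMI threshold was the same for every gene, whereas onset was relative to each gene's own peak. They did not simply follow the order of onset. Sycp1 was in the commonest combination at E12.5, before its onset at E13.5. Terb2 and Rad21l shared the onset stage of Sycp2 and Sycp3 but had lower peak means, 122 and 20.8 CPM against 460 and 222. At E12.5, E13.5 and E14.5 the commonest was Sycp1, Syce1, Hormad1 and Stag3 without the other 4, in 26 of 136, 51 of 138 and 67 of 233 cells. At E14.5 the next was all but Rad21l, in 49 of 233 cells. That combination was the commonest at E15.5 (70 of 140 cells) and E16.5 (59 of 138). At E17.5 and E18.5 the commonest had Terb2 as well as Rad21l below the threshold, in 51 of 120 and 35 of 81 cells. A gene left out of a combination can still have transcripts in the cell. At a threshold of 1 thinned UMI, Terb2 was counted in 73.3% of the cells of E17.5 and 64.2% of those of E18.5. Rad21l was counted in 26.7% and 18.5% at that threshold. All 8 genes were counted together in 8 of 233 cells at E14.5 and in 16 of 140 at E15.5.

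**Figure D4:**
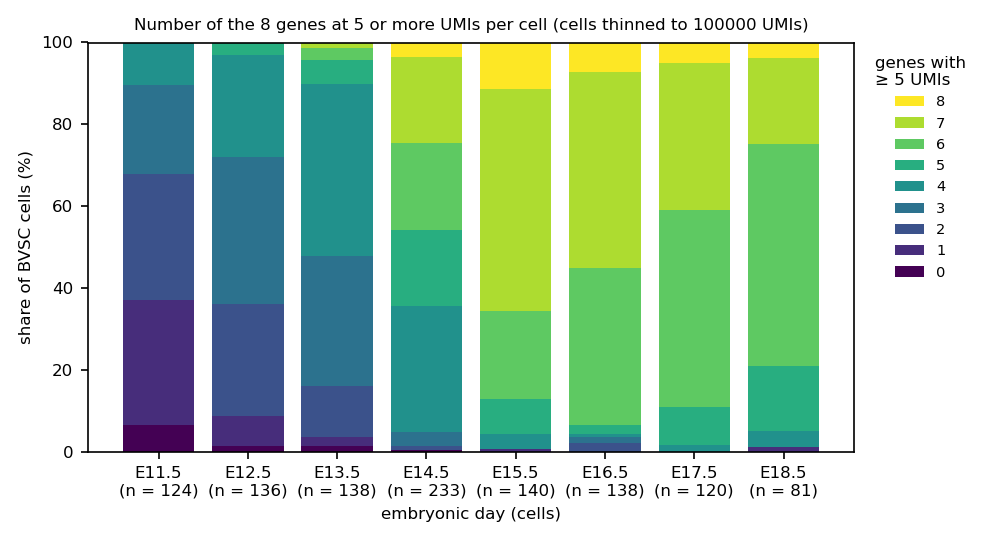
Share of BVSC cells (vertical axis, percent) by the number of the 8 genes counted at 5 or more UMIs, from 0 (dark) to 8 (yellow), for each embryonic day, with cells thinned to 100000 UMIs. Cells with at least 6 genes make up 45.9% at E14.5 and 93.5% at E16.5.

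Pairs of genes were compared across cells of a stage as a description; the cells of a stage share libraries, and all had the same thinned depth. At E14.5 Sycp2 and Sycp3 were both counted in 87 cells, Sycp2 alone in 36, Sycp3 alone in 20 and neither in 90. Their Spearman rho was 0.66 over 233 cells, between 0.48 and 0.74 within the 4 libraries. All 9 cells with Rad21l also had Sycp2 and Sycp3, and 8 of them had Terb2. At E15.5 all 22 cells with Rad21l had Sycp2 and 21 had Sycp3.

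Genes varied together across cells most at E14.5. Over the 21 pairs without Rad21l the median rho was 0.02, 0.07 and 0.16 at E11.5, E12.5 and E13.5. It was 0.57 at E14.5, 0.36 at E15.5, 0.35 at E16.5, 0.06 at E17.5 and 0.05 at E18.5. At E14.5 the pairs ran from 0.40 for Stag3 with Terb2 to 0.72 for Sycp1 with Syce1. Sycp1 with Hormad1 kept 0.69 at E15.5 and 0.43 at E17.5, and Sycp2 with Stag3 had 0.45 at E17.5, 0.27 and 0.39 within its libraries. Many of the counts before E14.5 were near 0, which limits what a rank correlation can show there. These medians are over all cells of a stage, with libraries mixed. The cell names also hold letters C, D and P, which no label explains. In library 5 (E14.5) Sycp1 was 765 CPM in cells of letter C and 351 in those of P. In library 14 it was 545, 513 and 521 CPM in C, D and P. How far such groups of cells shape rho was not tested.

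Stra8, the gatekeeper of meiotic entry, changed its place between those stages. Its mean BVSC level was 0 CPM at E11.5, 5.36 at E12.5, 151 at E13.5, 677 at E14.5, 344 at E15.5, 78.6 at E16.5 and 4.77 at E18.5. At E13.5 it was counted in all 6 cells that had Sycp3 and in 54 of the 132 that did not. Libraries are mixed in these counts. By library, the share of cells with Sycp3 ran from 1.23% to 8.77% and the level of Stra8 from 86.1 to 217 CPM. The rho of Stra8 with Sycp1 was 0.75 at E14.5 (0.67 to 0.77 by library) and -0.18 at E15.5 (-0.20 and -0.07). With Stag3 it was 0.58 at E13.5 (0.42 and 0.50 by library), 0.39 at E14.5 and -0.11 at E15.5.

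**Figure D5:**
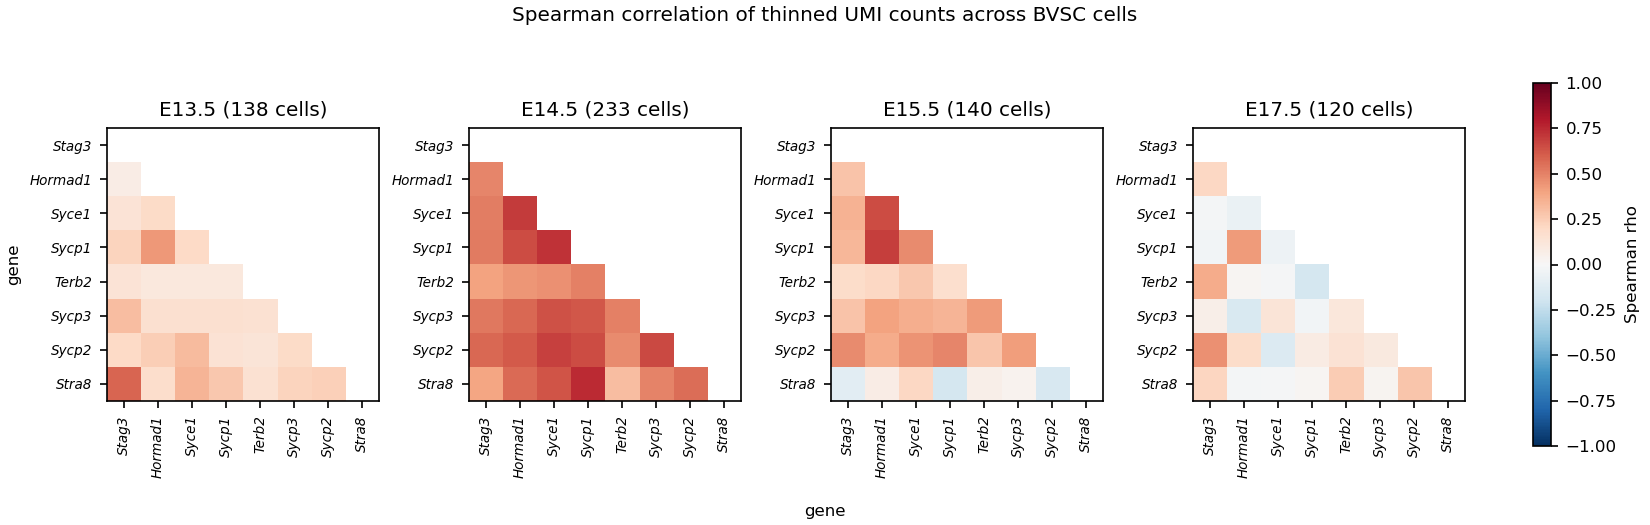
Spearman rho of thinned UMI counts between pairs of 7 of the genes and Stra8 across BVSC cells, at 4 stages, coloured from -1 (blue) to 1 (red). The pairs run from 0.40 to 0.72 among the 7 genes at E14.5 and lie near 0 for most pairs at E17.5.

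Other genes of the same processes were taken from lists chosen by function. Only listed genes in the complete part of the count table could be read, and the counts below are of those alone. Many others, such as Dmc1, Mei4, Syce2, Smc3 and Rad21, could not be seen. Of the 10 recombination genes read, 7 rose from E11.5 to E14.5 and none fell, against 8.35% of all genes called higher and 5.58% lower. The 7 were the double-strand break enzyme Spo11 (4.36 to 42.0 CPM), Tex11, Msh4, AI481877, Hfm1, Rnf212 and Brca2. The median log2 fold change of the 10 was 2.90, whatever the size given to Rnf212, which had 0 counts at E11.5 and could not have been called lower. From E14.5 to E15.5 Spo11 (to 241 CPM), Msh4, AI481877, Hfm1 and Rnf212 rose, against 3.55% of all genes called higher. The single-strand binding gene Rpa2 fell from 468 to 266 CPM, against 2.7% called lower. Over this step the calls of the 8 genes rested on single libraries, as given above.

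Of 4 meiotic initiation genes, Stra8, Zfp541 and Gm4969, which encodes MEIOSIN, rose from E11.5 to E14.5. Stra8 and Zfp541 had 0 counts at E11.5, so neither could have been called lower. Cyp26b1, which encodes an enzyme that degrades retinoic acid, was not called (0.396 and 2.53 CPM). From E14.5 to E16.5 Stra8 changed by -3.15 ± 0.84 on the log2 scale (adjusted p = 0.0148), the step over which 4 of the 8 genes rose. Of 4 partners in synapsis and telomere attachment, Ccdc155, which encodes a linker of telomeres to the cytoskeleton, rose by 4.42 ± 0.84 to E14.5 (adjusted p = 0.00133). Sgo2a, which guards centromeric cohesin, fell by 1.44 ± 0.29 (0.002), and Sun1 and Fkbp6 were not called. Of 4 genes of mitotic cohesin and its regulators, Smc1a fell by 0.70 ± 0.22 (0.0343), and Stag2, Pds5a and Pds5b were not called. Over that step the 4 mitotic genes had a median of -0.43.

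The genes whose profile over the 18 BVSC pools was most like the mean of the 8 were Dmrtc2, 1700028K03Rik, Adad1, Six5, AI481877, Uvssa, Gm42669, Stradb, Swt1 and Dgat2. Likeness was Pearson's r of log2(CPM + 1) with the mean of the 8 standardised profiles, and theirs ran from 0.982 to 0.987. Among the 8 themselves it ran from 0.812 for Stag3 to 0.985 for Terb2. Dmrtc2 stood at 1.37 CPM at E11.5, 165 at E14.5, 258 at E16.5 and 111 at E18.5. The pools share their stages, so these values describe a common time course.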

How the data were processed

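The deposited values are raw counts of UMIs per gene and cell, with the stage, library, gate and UMI total of each of 1881 cells in the authors' cell table. The submitters' processing notes name mm10, STAR, UMI-tools, Subread with featureCounts, and CASAVA 1.8, without settings. The table read here ended within a line, and its 16344 complete genes held a median of 51.2% of a cell's UMIs. Other genes, among them Rec8 and Smc1b, were not analysed here. No cells had identical counts. No doublet caller was run on these picked cells, and cells are listed by number, not barcode sequence.

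Counts were summed into pools and tested with edgeR 4.0.16 (R 4.3.3; TMM on the deposited UMI totals, filterByExpr, a mean per stage, or gate with stage as covariate; threshold 0.05 after adjustment). SE is the absolute log2 fold change over the square root of F. Fits were tested on simulated data. Cells were thinned without replacement; intervals are exact (Clopper-Pearson), and the limit of a count of 0 is 3 cells over the total. Named genes were the 8, the genes of the function lists and the 10 most alike in profile. The genes, lists and motifs were chosen with earlier results of these data known. Positions are GENCODE GRCm38. Alternatives covered scaling, the low-count filter, pool size, each library, title prefix, deposited replicate, somatic markers, thinning and thresholds.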

Additional observations from a re-analysis of the deposited data

How the results depend on the processing

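No log2 fold change of the 8 genes changed sign where it was called. Calls of the 8 genes held in 754 of 791 alternative values. The number of the 8 genes called moved by more than 1.5 times in these settings: from E11.5 to E12.5, 0 with upper-quartile scaling (1 in the report); from E12.5 to E13.5, 1 with DESeq2 and 2 with no filter on low counts (0 in the report); from E14.5 to E15.5, 5 with DESeq2 and 0 with pools merged by deposited replicate (3 in the report); from E14.5 to E16.5, 2 with merged pools (4 in the report); and from E16.5 to E18.5, 1 (Stag3) with DESeq2, upper-quartile scaling, no filter or without BVSC cells with somatic markers (0 in the report). Leaving out each library in turn gave 0 to 1, 0 to 1, 3 to 7, 0 to 5, 2 to 4 and 0 to 1 genes for E11.5 to E12.5, E12.5 to E13.5, E13.5 to E14.5, E14.5 to E15.5, E14.5 to E16.5 and E16.5 to E18.5. It left 8 from E11.5 to E14.5 and 7 between BVSC and Negative, and none for the other steps. The causes were not tested. The stage of 50% of the peak of Terb2 was E14.5 without library 16.

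With the stages numbered from 1 (E11.5) to 8 (E18.5), onset at 25% of the peak was stage 4 for Sycp1 and Syce1, stage 2 for Hormad1 and stage 3 for Stag3. Onset of Sycp1 was stage 4 in the mean over cells and without cells with somatic markers. Over libraries left out, onset ran from stage 3 to 4 for Sycp1 and Terb2, and peaks from stage 6 to 7 for Sycp1 and Hormad1 and from 7 to 8 for Sycp3. The peak of Hormad1 was stage 5 in the mean over cells and that of Sycp3 stage 6 without cells with somatic markers.

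At 50000 UMIs per cell the share of cells with at least 6 genes was 1.34%, 28.8%, 73.4%, 67.1%, 61.5% and 50.5% from E13.5 to E18.5, and at a threshold of 1 UMI it was 3.23%, 9.56%, 17.4%, 82.8%, 99.3%, 99.3%, 100% and 96.3% from E11.5 to E18.5. It was 99.0% at E16.5 without cells with somatic markers. Without 1 library it ran from 0% to 10.5% at E13.5 and from 52.2% to 89.7% at E18.5.

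The deposited replicate numbers did not pair the samples: over 28 pairs of stages, correlations of the R1 minus R2 difference ran from -0.149 to 0.109. With the deposited replicate as a block 6 of the 8 were called from E13.5 to E14.5 and 4 from E14.5 to E15.5, and with library as a block 7 between BVSC and Negative.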
